A study of Mus musculus with 384 samples.

Results

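Lypd1, Lynx1, Lypd6, Lypd6b, Ly6h and Ly6e are 6 genes of the Ly6/lynx family that were read from the count table by their symbols, out of 26749 gene entries with at least 1 read in the series. The data are single-cell RNA-seq counts from midbrain dopamine (DA) neurons of C57BL6/J mice that carried DATIRESCre (DAT-Cre in some labels) and the Ai9 (RCL-tdT) reporter, a line in which any cell that has used the DA transporter promoter is labelled with tdTomato. All cells came from midbrain tissue dissected together with the hypothalamus and were sorted as tdTomato-positive and propidium iodide-negative before capture on a Fluidigm C1 chip. The 384 cells came from 8 mice, 3 labelled female (25, 33 and 36 days old) and 5 labelled male (24, 24, 27, 27 and 28 days old), with 1 C1 run per mouse. These are the labels of the single cells, and the text describing the series gives a narrower range of ages and 6 males to 2 females. The 209 cells with at least 500000 reads on genes were used here, 12 to 45 per mouse, with a median of 780466 reads and 9122 detected genes per cell.

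Ly6/lynx proteins are small, mostly membrane-anchored proteins with the same fold as the snake neurotoxins that block nicotinic acetylcholine receptors. Several of them bind nicotinic receptors or their subunits and alter receptor assembly, delivery to the surface or response to acetylcholine. Lynx1 and Lypd1 (also called Lynx2) are known as brakes on nicotinic signaling, Ly6h as a protein that holds Chrna7 receptors away from the surface, and Lypd6 as a modulator of nicotinic currents that has also been tied to Wnt signaling. Lypd6b is the closest relative of Lypd6. Ly6e is best known outside the brain, as an interferon-induced protein involved in virus entry. DA neurons are a classical site of nicotinic action, through receptors built mainly from Chrna4, Chrna6, Chrnb2 and Chrnb3.

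The labelled cell type was checked first against its markers. At least 10 reads of each of the 4 DA markers (Th, Slc6a3, Slc18a2 and Ddc) were present in 196 of the 209 cells, and 17 cells had under 100 CPM (reads of a gene per 1000000 reads on genes) of Th, the rate-limiting enzyme of DA synthesis. The summed level of 7 endothelial markers was at most 33.8 CPM in any cell, and that of 7 microglial markers at most 59.8 CPM. GABA neuron markers reached 100 CPM in 35 cells, glutamate neuron markers in 88, and oligodendrocyte markers in 27. Their highest sums in a cell were 5392, 1889 and 97388 CPM, respectively. The 6 astrocyte markers reached 100 CPM in 155 cells, with at most 4237 CPM in a cell, but no cell had 10 reads of all of them. The same held for the oligodendrocyte markers, even in the cell at 97388 CPM, so this limit does not exclude glial RNA. No 2 cells held identical counts.

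The 6 genes lie on 3 chromosomes of GRCm38 (positions of RefSeq, GRCm38.p6). Lypd1 lies at chr1:125867622-125913175 on the minus strand. Lypd6b (chr2:49787340-49948849) and Lypd6 (chr2:50066400-50193569) are neighbours on the plus strand of chromosome 2. Lynx1 (chr15:74747856-74752979, minus strand), Ly6e (chr15:74955025-74959904, plus strand) and Ly6h (chr15:75564745-75569470, minus strand) lie in the Ly6 cluster of chromosome 15. In the GENCODE M21 annotation, exons of Lypd1 share 1202 bases (chr1:125872370-125873571, 17.1% of the exonic bases of Lypd1) with Gpr39 on the opposite strand. Reads on more than 1 gene were left out by the authors, and whether counting used strand is not given in the sources used here, so the Lypd1 count may miss reads from this stretch. Gpr39 itself had 0 reads in the 209 cells. The other 5 genes share no exonic base with another gene in that annotation.

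Ly6e was the most abundant of the 6 genes and was found in nearly every cell. Its level, from counts summed over the cells of each mouse, had a minimum of 187 CPM, a median of 267 CPM and a maximum of 304 CPM over the 8 mice. At least 10 reads of Ly6e were present in 200 of 209 cells (95.7%, exact 95% binomial interval 92.0 to 98.0%). These intervals, here and below, cover counting error only.

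Lynx1 and Ly6h were common but not general. Lynx1 varied more than Ly6h over the mice, from 18.3 CPM in mouse 1 to 142 CPM in mouse 4, with a median of 69.4 CPM. At least 10 reads of Lynx1 were present in 142 cells (67.9%, interval 61.2 to 74.2%), and this share ran from 22.2% of the cells of mouse 1 to 91.7% of those of mouse 4. Ly6h ranged from 14.5 to 41.1 CPM with a median of 36.9 CPM. At least 10 reads of Ly6h were present in 143 cells (68.4%, interval 61.7 to 74.7%), from 37.8% of the cells of mouse 3 to 90.5% of those of mouse 8. With at least 1 read as the limit the share was 83.3% for Lynx1 and 94.7% for Ly6h, so that the gap between both limits was wider for Ly6h.

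Lypd1 was low where it was found, and few cells reached 10 reads of it. Its level ranged from 1.31 to 10.1 CPM over the mice, with a median of 4.31 CPM. At least 1 read was present in 85 cells (40.7%, interval 33.9 to 47.7%), with a median of 3 reads in those cells, and at least 10 reads in 24 cells (11.5%, interval 7.50 to 16.6%). The 5 cells with the most reads held 35.7% of the 879 Lypd1 reads. Of the 24 cells with 10 reads, 9 came from mouse 3, 6 from mouse 5 and 4 from mouse 8, against 2, 2 and 1 from mice 2, 7 and 1 and none from mice 4 and 6. Mice 3, 5 and 8 are those run on the C1 machine labelled FRODO, all others on the machine labelled SMEAGOL, and machine and mouse cannot be told apart here.

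Lypd6 and Lypd6b were found in few cells, with at least 10 reads in no more than 4 cells of any mouse. Lypd6 had at least 1 read in 12 cells and at least 10 in 9 cells (4.31%, interval 1.99 to 8.02%). It was listed at 0 in mice 4, 6 and 8 and reached 13.8 CPM in mouse 1. Its 5 cells with the most reads held 82.1% of its 487 reads. Lypd6b had at least 1 read in 25 cells and at least 10 in 12 cells (5.74%, interval 3.00 to 9.81%), was listed at 0 in mouse 8 and reached 32.5 CPM in mouse 1, where 393 of its 414 reads lay in a single cell. A total of 3 reads, the limit that a count of 0 allows if reads fall evenly over cells, corresponds to 0.0914 to 0.353 CPM in these mice. Because the reads of both genes lay in few cells, a 0 over the 12, 17 or 21 cells of mice 4, 6 and 8 does not bound the level that closely.

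**Figure D1:**
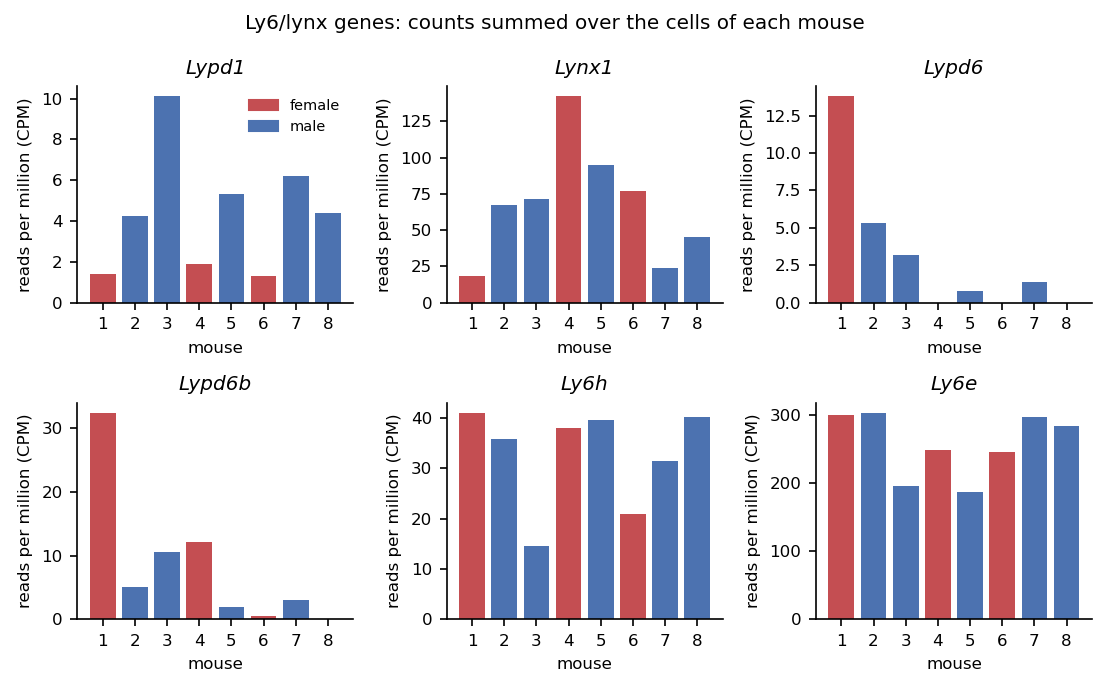
Level of each of the 6 genes by mouse, in CPM, from reads summed over the cells of a mouse; each bar is 1 mouse, red for female and blue for male, and the vertical scale differs between panels. Ly6e stayed between 187 and 304 CPM, whereas Lypd6 and Lypd6b were highest in mouse 1, at 13.8 and 32.5 CPM. Lypd1 was at 4.25 CPM or more in each male and at 1.88 CPM or less in each female. A single cell held 71.0% of the Lypd1 reads of male mouse 2 and 66.7% of those of female mouse 1.

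The order of the genes was set on CPM per kilobase of exon, the scale on which different genes can be compared. The medians over the 8 mice were 70.6 for Ly6e, 14.9 for Lynx1, 8.74 for Ly6h, 1.55 for Lypd6b, 0.613 for Lypd1 and 0.288 CPM per kilobase for Lypd6. Only Ly6e stood clear of its neighbour, with its lowest mouse at 49.4 against 30.5 CPM per kilobase in the highest mouse for Lynx1. Lynx1 was above Ly6h in 6 of 8 mice, by 0.66 ± 1.09 on the log2(value + 1) scale (mean ± SD, n = 8 mice). Ly6h was above Lypd6b in 6 of 8 mice, Lypd6b above Lypd1 in 5 of 8, and Lypd1 above Lypd6 in 6 of 8, each with a mean difference of no more than 1.5 times its SD over mice. On the same scale of CPM per kilobase, the subunit genes had medians of 335 for Chrna6, 82.4 for Chrna4, 40.6 for Chrnb3, 9.11 for Chrna3 and 6.92 for Chrnb2.

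Cells seldom lacked all of these genes. With 10 reads as the limit, 4 cells had none of the 6, 18 had 1, 78 had 2, 83 had 3, 23 had 4 and 3 had 5. Lynx1 and Ly6h were both present in 95 cells, 66.9% of the Lynx1-positive cells against 68.4% of all cells with Ly6h. Lypd6 and Lypd6b, neighbours on chromosome 2, were both present in 2 cells, which is 22.2% of the 9 Lypd6-positive and 16.7% of the 12 Lypd6b-positive cells, and both of these cells came from mouse 3.

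Most of the few cells with Lypd6 or Lypd6b carried Th, while their other markers varied. Th had a median of 7064 CPM in the 9 Lypd6-positive cells and 8650 CPM in the 12 Lypd6b-positive cells, against 6463 CPM over all cells. Slc6a3, the DA transporter, was lower than over all cells, with medians of 1153 and 2177 CPM in the Lypd6-positive and Lypd6b-positive cells against 2928 CPM. Gad2, a GABA synthesis enzyme, had 10 reads in 5 of 9 Lypd6-positive cells (55.6%) and in 1 of 12 Lypd6b-positive cells (8.33%), against 20.1% of all cells. The single cell of mouse 1 with the highest Lypd6b, at 664 CPM, had 3.38 CPM of Th and 1.69 CPM of Slc6a3 and no read of the other 5 genes. In mouse 1, both Lypd6-positive cells carried Gad1, another GABA synthesis enzyme, at 1413 and 832 CPM. The Lypd6-positive cell of mouse 7 had 26.0 CPM of Th and 1032 CPM of Slc17a6, a vesicular glutamate transporter. Slc17a6 was present with 10 reads in 9 of 12 Lypd6b-positive cells (75%) and in 6 of 9 Lypd6-positive cells (66.7%), against 54.1% of all cells. Among the 17 cells under 100 CPM of Th, 1 cell each was positive for Lypd1, Lypd6 and Lypd6b, and 11 (64.7%), 12 (70.6%) and 14 (82.4%) were positive for Lynx1, Ly6h and Ly6e.

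Nearly all Lypd1-positive cells, like nearly all cells used, carried DA neuron transcripts. Slc6a3 had 10 reads in all 24 and Th in 23 (95.8%), against 98.1% and 94.7% of all cells. The exception was a cell of mouse 2 at 4.87 CPM of Th. Th was at a median of 7057 CPM and Slc6a3 at 4028 CPM in these 24 cells, against 6463 and 2928 CPM over all cells. Neurod6, a transcription factor gene that marks a subset of DA neurons of the ventral tegmental area, was present with 10 reads in 2 of the 24 (8.33%) against 23.4% of all cells. Aldh1a7, an aldehyde dehydrogenase gene, was present in 7 of 24 (29.2%) against 35.4%. The subunits Chrna4, Chrna6 and Chrnb3 were present in 95.8%, 91.7% and 91.7% of the 24 cells, against 89.0%, 86.6% and 81.3% of all cells. Chrnb2 was present in 66.7% against 72.7%, and Chrna3 in 41.7% against 43.5%. These shares pool the mice, and 19 of the 24 cells came from mice 3, 5 and 8. Within those mice Chrnb3 was less frequent in Lypd1-positive than in Lypd1-negative cells in 2 of 3, and Chrna6 was present in 50% against 94.1% in mouse 8.

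Neurod6 and Aldh1a7 divide the cells into 4 classes, with 31 cells positive for Neurod6 alone, 56 for Aldh1a7 alone, 18 for both and 104 for neither. Ly6h was present in 28 of 31 cells positive for Neurod6 alone (90.3%, interval 74.2 to 98.0%) and in 17 of 18 positive for both (94.4%, interval 72.7 to 99.9%). It was present in 27 of 56 positive for Aldh1a7 alone (48.2%, interval 34.7 to 62.0%). These shares pool mice that differ in Ly6h and in their classes, and 28 of the 74 Aldh1a7-positive cells came from mouse 3, where Ly6h was lowest. Within mice, the Ly6h share was higher in Neurod6-positive than in Neurod6-negative cells in 6 of 6 mice, but it was lower in Aldh1a7-positive cells in 3 of 7 mice (2, 4 and 5) and higher in the other 4. Lynx1 was present in 85.7% of the cells with Aldh1a7 alone, 72.2% of those with both, 71.0% of those with Neurod6 alone and 56.7% of those with neither. The Lynx1 shares pool the mice in the same way. The level of Lynx1 summed by mouse went the other way, lower in Aldh1a7-positive than in Aldh1a7-negative cells in 5 of 7 mice.

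Lypd6b with 10 reads was found in 4 of 31 cells with Neurod6 alone, in 8 of 104 with neither, and in none of the 74 cells with Aldh1a7. A count of 0 in 56 cells with Aldh1a7 alone has an exact upper bound of 6.38%, and over the 74 cells one of 4.86%. Lypd1 with 10 reads was found in 0 of 18 cells positive for both, 2 of 31 with Neurod6 alone, 7 of 56 with Aldh1a7 alone and 15 of 104 with neither. At a limit of 1 read, Lypd1 was found in 11 of 49 Neurod6-positive cells (22.4%) and in 74 of 160 Neurod6-negative cells (46.2%), shares that pool the mice. Median depth was 738436 to 820253 reads per cell in the 4 classes.

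**Figure D2:**
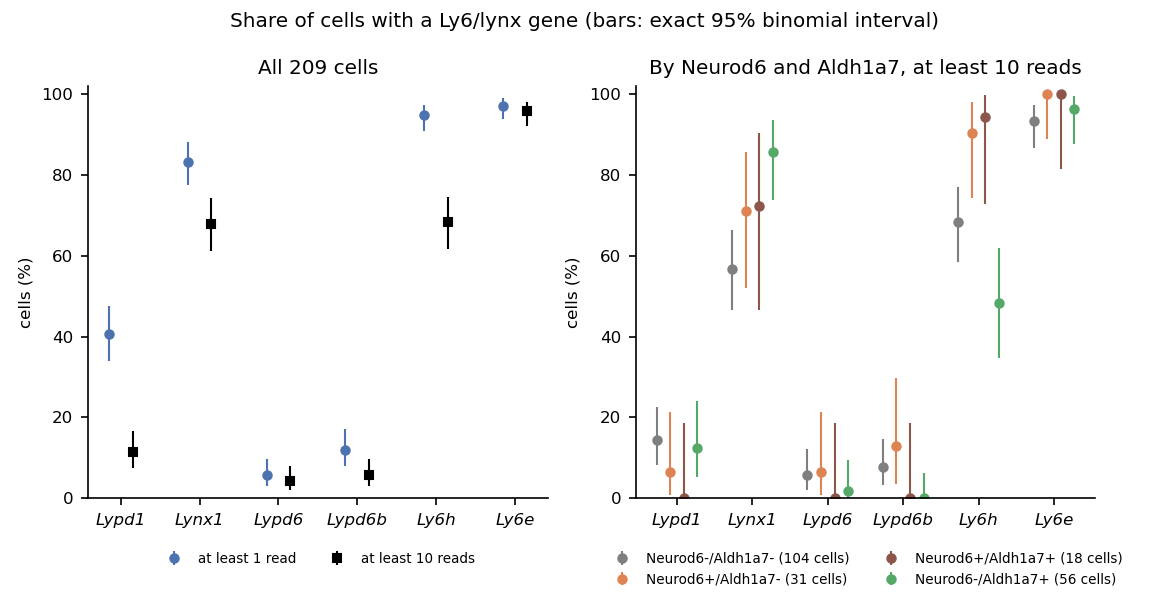
Share of cells (%) with each gene; left, all 209 cells at limits of 1 read (circles) and 10 reads (squares); right, cells with at least 10 reads in 4 classes of cells defined by 10 reads of Neurod6 and Aldh1a7. Bars are exact 95% binomial intervals; pooled over mice, Ly6h ran from 48.2% of the cells with Aldh1a7 alone to 94.4% of those with both, although within mice its share was lower in Aldh1a7-positive cells in 3 of 7, and Lypd6b was at 0 in both classes with Aldh1a7.

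The first comparison asked whether the genes differ between Neurod6-positive and Neurod6-negative cells of the same mice. It used 47 positive and 133 negative cells of 6 mice, summed by mouse and class. Of 12605 genes tested with edgeR, 7 passed an adjusted p of 0.05 (0.0555%), Neurod6 itself included, or 1 (0.00793%) with the mouse as a block. None of the 6 Ly6/lynx genes was among them with either fit. DESeq2 called 333 genes (2.05%), none of them a Ly6/lynx gene, and gave Lypd6b no adjusted p. At an unadjusted p under 0.05, 2 of the 6 genes passed, Ly6h and Ly6e, against 781 of all genes (6.2%). When blocked by mouse, 3 passed, Lypd1 too, against 8.16% of all genes.

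Lypd1 was lower in Neurod6-positive cells in each of the 6 mice. Its level in positive cells ranged from 0 to 4.94 CPM, with a median of 0.357 CPM, and in negative cells from 1.72 to 11.2 CPM, with a median of 7.29 CPM. The groups overlapped, because positive cells of mice 3 and 5 were at 4.78 and 4.94 CPM. The log2 fold change was -1.96 ± 0.98 (SE, n = 6 mice), with an adjusted p of 0.832 in edgeR's quasi-likelihood test. Leaving out each mouse in turn from this fit gave -2.64 to -1.61. With the mouse as a block the log2 fold change of Lypd1 was -3.27 ± 1.06 (SE, edgeR adjusted p = 0.463). Of all genes tested, 4.65% were lower in every mouse and 2.28% higher in every mouse.

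Ly6h and Ly6e were higher in Neurod6-positive cells in 5 of 6 mice each, without passing the test. Ly6h ranged from 21.8 to 90.0 CPM with a median of 46.2 CPM in positive cells and from 12.9 to 38.25 CPM with a median of 28.1 CPM in negative cells. Its log2 fold change was 0.89 ± 0.37 (SE, n = 6 mice, edgeR adjusted p = 0.74). Ly6e ranged from 246 to 387 CPM with a median of 323 CPM in positive cells and from 160 to 304 CPM with a median of 262 CPM in negative cells. Its log2 fold change was 0.47 ± 0.20 (SE, n = 6 mice, edgeR adjusted p = 0.762).

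Lynx1 showed no common direction, being higher in positive cells of 3 mice and lower in 3 (log2 fold change -0.16 ± 0.52, SE). Lypd6 and Lypd6b could not be placed. The log2 fold change of Lypd6b was 0.45 ± 1.57 (SE), and became -2.31 without mouse 3 and 2.22 without mouse 1. In mouse 3, Neurod6-positive cells were at 55.4 CPM of Lypd6b and negative cells at 1.21 CPM, while in mouse 1 the values were 2.61 and 39.0 CPM.

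Other markers moved with this split. GABA neuron markers were lower in Neurod6-positive cells in 5 of 6 mice (medians 51.6 and 381 CPM), and the 4 DA markers higher in 5 of 6 (medians 13838 and 12176 CPM). Astrocyte markers (medians 680 and 339 CPM) and glutamate neuron markers (medians 220 and 169 CPM) were also higher in 5 of 6 mice each. Their part in the Ly6/lynx values was not tested. Restricted to cells with at least 100 CPM of Th, the log2 fold change of Lypd1 was -1.99.

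The second comparison set Aldh1a7-positive cells against Aldh1a7-negative cells, 74 and 117 cells of 7 mice. Of 12781 genes tested, 52 passed (0.407%), or 29 (0.227%) with the mouse as a block. Of the 6 Ly6/lynx genes, 4 had enough reads to be tested, and all 4 had lower estimates in Aldh1a7-positive cells. None of the 4 passed the test. At an unadjusted p under 0.05 none passed, against 11% of all genes, and in the fit blocked by mouse 2 passed, Lypd1 and Ly6e, against 13% of all genes. Their median log2 fold change was -0.67, against 0.00142 over all genes tested.

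Lypd1 was lower in Aldh1a7-positive cells in each of the 7 mice. It ranged from 0 to 7.76 CPM with a median of 1.27 CPM in positive cells, and from 1.68 to 13.7 CPM with a median of 5.66 CPM in negative cells, so that the groups overlapped. The log2 fold change was -1.06 ± 0.78 (SE, n = 7 mice, edgeR adjusted p = 0.68), and -1.66 ± 0.70 with the mouse as a block (SE, edgeR adjusted p = 0.358). Of all genes tested, 5.02% were lower in every mouse and 1.71% higher.

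Ly6h and Ly6e were each lower in 6 of 7 mice. Ly6h ranged from 10.8 to 37.1 CPM with a median of 19.1 CPM in positive cells and from 17.3 to 59.3 CPM with a median of 43.9 CPM in negative cells, with mouse 7 as the exception. Its log2 fold change was -0.73 ± 0.35 (SE, n = 7 mice, edgeR adjusted p = 0.468). Ly6e ranged from 50.0 to 327 CPM with a median of 146 CPM in positive cells, and from 241 to 337 CPM with a median of 303 CPM in negative cells, with mouse 8 as the exception. Its log2 fold change was -0.62 ± 0.31 (SE, n = 7 mice, edgeR adjusted p = 0.479). For Ly6h and Ly6e, the direction was therefore opposite to that in the Neurod6 split, but the difference between both splits was not tested.

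Lynx1 was lower in 5 of 7 mice, with a log2 fold change of -0.60 ± 0.42 (SE). Without mouse 4, in which it was at 55.4 CPM in positive and 180 CPM in negative cells, the log2 fold change of Lynx1 was -0.31.

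Lypd6b did not have enough reads in enough samples for the edgeR test. Positive cells held 11 reads of it, all in mouse 3 (0.554 CPM), and negative cells 708 reads, in 6 of 7 mice and up to 25.8 CPM. DESeq2, which ran without that filter, gave it an adjusted p of 0.00267 with a log2 fold change of -6.18, in a fit that called 556 genes (3.53%), whereas edgeR without the filter gave an adjusted p of 0.112. Lypd6 was at 3.53 CPM in positive cells of mouse 3 and at 0 in those of the other mice.

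**Figure D3:**
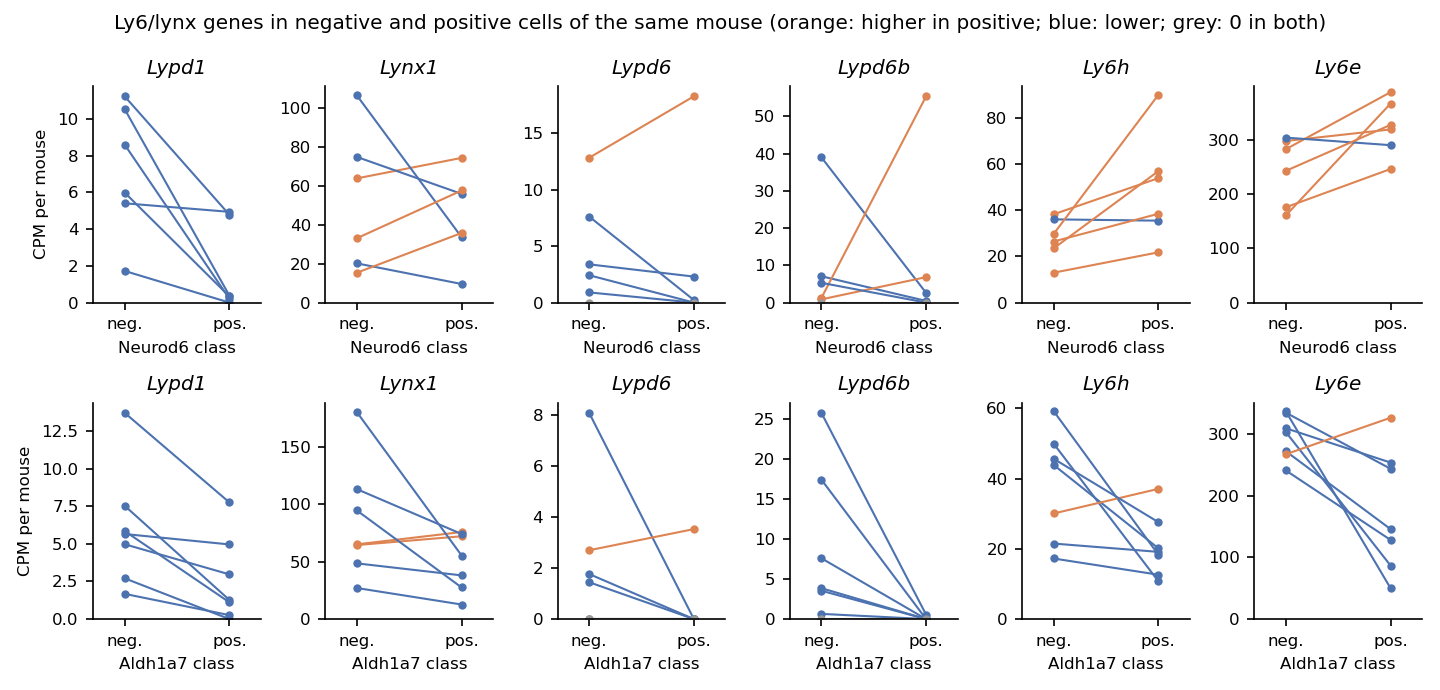
Level (CPM) of the 6 genes in the negative and positive cells of the same mouse, for classes defined by 10 reads of Neurod6 (top, 6 mice) and Aldh1a7 (bottom, 7 mice); each line is 1 mouse, orange where positive cells were higher, blue where lower and grey where both were at 0. Lypd1 was lower in positive cells in all lines of both rows, while Ly6h and Ly6e were higher in positive cells in 5 of 6 lines of the top row and lower in 6 of 7 lines of the bottom row; none of these differences passed the adjusted test.

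The nicotinic subunits were read in the same fits. Of 16 subunit genes in the table, 13 had reads in the 209 cells and 9 were tested. None passed the edgeR test in the Neurod6 or the Aldh1a7 split. In the Neurod6 split, Chrna6 was higher in positive cells in 6 of 6 mice (log2 fold change 0.59 ± 0.24, SE, edgeR adjusted p = 0.736), the direction of Ly6h and Ly6e there. With the mouse as a block the log2 fold change of Chrna6 was 0.613 ± 0.105 (SE, edgeR adjusted p = 0.166). In the Aldh1a7 split, 5 of the 9 had an unadjusted p under 0.05 (Chrna3, Chrna4, Chrna5, Chrna6 and Chrnb4), against 11% of all genes. In the fit blocked by mouse 5 also did, with Chrna7 in place of Chrnb4, against 13%. Chrna3 was at 53.1 to 144 CPM in positive and 0.446 to 69.2 CPM in negative cells and higher in 7 of 7 mice (log2 fold change 2.32 ± 0.66, SE, edgeR adjusted p = 0.16, DESeq2 adjusted p = 0.0201). Chrna6 was higher in 6 of 7 mice (0.89 ± 0.27, SE, edgeR adjusted p = 0.182). In the fit blocked by mouse, Chrna3 was at 3.16 ± 0.63 (SE, edgeR adjusted p = 0.0695) and Chrna6 at 0.92 ± 0.21 (SE, edgeR adjusted p = 0.102). Chrnb4 was higher in 5 of 7 mice (3.90 ± 1.33, SE, edgeR adjusted p = 0.261, DESeq2 adjusted p = 0.0297), and at 3.74 ± 2.14 in the blocked fit (SE, edgeR adjusted p = 0.517). Its log2 fold change was 2.25 without mouse 6, in which 362 of 365 Chrnb4 reads lay in 1 cell, and 5.31 without mouse 7. Chrna7, whose receptors Ly6h is known to hold back, was lower in 7 of 7 mice, at 0 to 11.3 CPM in positive and 1.02 to 20.9 CPM in negative cells (-1.35 ± 1.18, SE, edgeR adjusted p = 0.739), and at -3.78 ± 1.24 in the fit blocked by mouse (SE, edgeR adjusted p = 0.235). In the same split the DA markers were higher in Aldh1a7-positive cells in 7 of 7 mice (medians 17175 and 9712 CPM) and glutamate neuron markers lower in 7 of 7 (medians 71.8 and 341 CPM). Oligodendrocyte markers were lower in 6 of 7 (medians 3.30 and 55.6 CPM) and GABA neuron markers in 5 of 7 (medians 2.54 and 332 CPM). More genes were detected in Aldh1a7-positive cells, with medians of 9778 and 8662, and the part of these in the values was not tested.

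Of 5 genes that act in nicotinic receptor assembly, none passed in either split. Tmem35 (Tmem35a or NACHO, a chaperone of Chrna7 receptors) was lower in Aldh1a7-positive cells in 7 of 7 mice, from 11.9 to 106 CPM with a median of 42.9 CPM against 69.0 to 160 CPM with a median of 126 CPM. Its log2 fold change was -1.22 ± 0.39 (SE, n = 7 mice, edgeR adjusted p = 0.215). Rer1, which retains unassembled subunits, went the other way, higher in 6 of 7 mice (0.85 ± 0.29, SE, edgeR adjusted p = 0.261), and 3 of the 5 estimates were above 0.

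The third comparison set Lypd1-positive against Lypd1-negative cells. Only mice 3, 5 and 8 had 3 cells in each class, so it rests on 19 positive and 85 negative cells of 3 male mice. Of 13184 genes tested with edgeR, 0 passed (0%), with or without the mouse as a block, while 463 (3.51%) had an unadjusted p under 0.05 and DESeq2 called 145 (0.965%). Lypd1 itself, which defined the classes, was at 20.6, 29.8 and 40.9 CPM in positive cells and at 0.887, 0.888 and 2.07 CPM in negative cells, and did not pass the edgeR test either (adjusted p = 0.627). Lynx1 was lower in Lypd1-positive cells in 3 of 3 mice, at 58.9, 79.3 and 20.0 CPM against 75.0, 97.3 and 51.0 CPM in mice 3, 5 and 8 (log2 fold change -0.50 ± 0.51, SE), where 16.2% of all genes were lower and 9.57% higher in all 3 mice. Ly6h differed by 0.48 ± 0.65 and Ly6e by 0.08 ± 0.30 on the log2 scale (SE). None of the other 5 Ly6/lynx genes had an unadjusted p under 0.05, nor with the mouse as a block, where 4% of all genes did. In the same 3 mice DA markers were higher in Lypd1-positive cells in 3 of 3 (medians 15026 and 11966 CPM) and glutamate neuron markers lower in 3 of 3 (medians 33.2 and 322 CPM), and their part was not tested. The Lypd1 levels themselves did not overlap between the classes, by construction, as for 2.62% of genes with higher values in positive cells. Among the subunits, Chrna4 was higher in 3 of 3 mice (0.46 ± 0.30, SE) and Chrnb2 lower in 3 of 3 (-0.57 ± 0.44, SE).

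Between the sexes, Lypd1 separated the mice without passing the test. Its level was 1.41, 1.88 and 1.31 CPM in the 3 females and 4.25, 10.1, 5.32, 6.21 and 4.38 CPM in the 5 males. Every male was above every female, as for 3.13% of all 15528 genes tested, while 2.47% had every male below every female. Single cells weighed heavily in both sexes. In males, 88 of the 124 Lypd1 reads of mouse 2 and 75 of the 116 of mouse 7 lay in 1 cell each. In females, this held for 12 of 18 reads in mouse 1, 8 of 16 in mouse 4 and 9 of 19 in mouse 6. The other cells of male mouse 2 were at 1.28 CPM, below all 3 females with their top cells kept. Without the cell with the most Lypd1 reads in each mouse, a step chosen after the data were seen, females were at 0.51 to 1.04 CPM and males at 1.28 to 8.64 CPM. The share of cells with at least 1 read of Lypd1 overlapped between the sexes, at 27.8 to 41.2% in females and 23.5 to 61.9% in males, with male mouse 2 the lowest of all. The log2 fold change of males over females was 2.02 ± 0.68 (SE, n = 3 and 5 mice), with an adjusted p of 0.522 in edgeR, which called 5 genes (0.0322%), and of 0.00988 in DESeq2, which called 318 (2.02%). Lypd1 was the 1 gene of the 6 with an unadjusted p under 0.05 in edgeR, against 8.12% of all genes. Among mice 1, 2, 4, 6 and 7, run on the SMEAGOL machine, the log2 fold change of Lypd1 was 1.78, and no gene passed the edgeR test there. Of the females 2 were older than every male, and the part of age in the Lypd1 values was not tested.

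The other 5 genes overlapped between the sexes. Their log2 fold changes of males over females were -0.38 ± 0.59 for Lynx1, -0.996 ± 1.85 for Lypd6, -1.76 ± 1.38 for Lypd6b, -0.03 ± 0.37 for Ly6h and -0.04 ± 0.22 for Ly6e (SE). Lypd6 rested on mouse 1, without which its log2 fold change was 8.60, as both other females were listed at 0. The genes that passed were Ddx3y, Uty, Eif2s3y and Kdm5d of the Y chromosome, which were higher in males, and Xist, higher in females, so that the sex labels matched the transcripts.

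Over single cells, the relations of the Ly6/lynx genes to the nicotinic subunits were weak and varied between mice. Spearman's rho of log2(CPM + 1), centred within mice, was computed for the 5 genes with 10 reads in at least 10 cells and the 7 subunits with 10 reads in at least 10% of the cells, and is given as a description, since cells of a mouse share a C1 run and, except in mouse 4, a sequencing lane. The 35 values ran from -0.23 to 0.13. The most negative were Ly6h with Chrna3 (-0.23, below 0 in 7 of 8 mice) and Ly6h with Chrna5 (-0.23, below 0 in 6 of 7 mice), with SDs over the mice of 0.25 for each. Both lay below the central 95% of the rho of Ly6h with all genes, which ran from -0.18 to 0.20. Both were larger in size than that SD with full-quantile normalization (-0.29 and -0.26) and without centring within mice (-0.33 and -0.35). Lypd1 was at -0.18 with Chrnb2, which was below 0 in 7 of 8 mice, and at -0.11 with Chrna6, against a central 95% over all genes of -0.12 to 0.16. Ly6e was at -0.19 with Chrna3, below 0 in 6 of 8 mice, against a central 95% over all genes of -0.18 to 0.21. Ly6e with Chrna5, at -0.13 and inside that range, was the one pair with the same sign in every mouse (below 0 in 7 of 7). Lynx1 stayed between -0.05 and 0.09 with all 7 subunits, and its sign differed between mice for each of them.

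**Figure D4:**
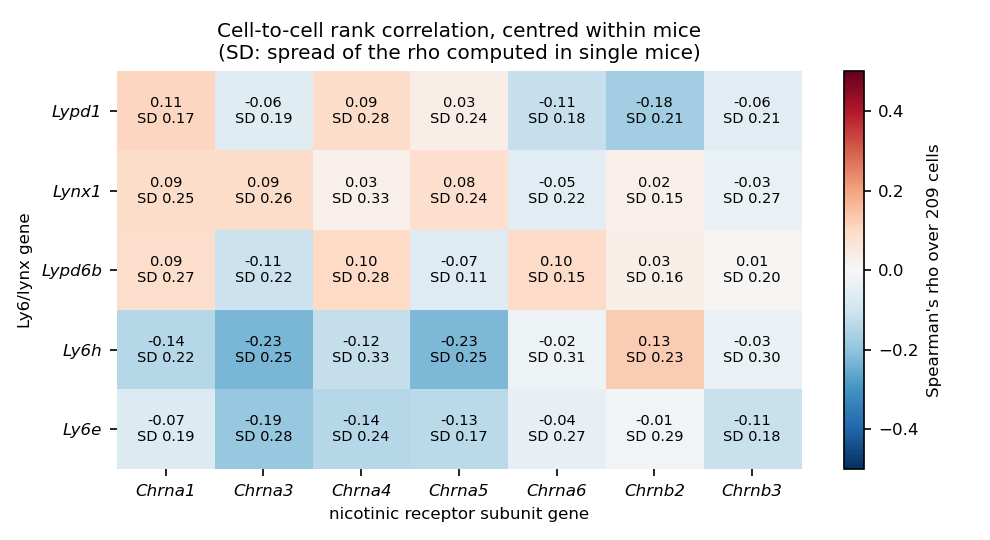
Spearman's rho over 209 cells, with values centred within mice, between 5 Ly6/lynx genes (rows) and 7 nicotinic subunit genes (columns), with the SD of the rho computed in single mice under each value; red is positive and blue negative. The values ran from -0.23 to 0.13, and all 35 were smaller in size than their SD over mice.

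Among themselves, only Ly6h and Ly6e were related beyond these values. Their rho was 0.34 over the 209 cells and above 0 in 8 of 8 mice (0.03 to 0.59), and it was 0.23 in cells with at least 100 CPM of Th. Of the 5 genes most similar to each among 10413 compared, Caly, Resp18 and Gpx3 were common to both. For Ly6h these were Caly (rho 0.50), Fxyd6 (0.48), Resp18 (0.47), Gpx3 (0.46) and Tmem59l (0.46), and for Ly6e Resp18 (0.50), Gpx3 (0.46), Caly (0.46), Zcchc12 (0.45) and Lrpap1 (0.44). Lynx1 was most like Thy1 (0.46), which encodes another anchored surface protein of neurons, followed by Adam23 (0.33), Rgs7bp (0.32), Ace (0.31) and Atxn3 (0.31). Lypd1 was most like Bdnf, a neurotrophin gene (0.36), which had 10 reads in 20 of the 24 Lypd1-positive cells and in 114 cells in all, then B3galtl (0.34), Pdcd4 (0.30), Itgb1 (0.30) and Rph3a (0.30). Rph3a, a synaptic vesicle protein gene, was also among the 7 genes called in the Neurod6 split, lower in Neurod6-positive cells (log2 fold change -1.45 ± 0.24, SE, edgeR adjusted p = 0.0492), but not in the fit blocked by mouse, which called Neurod6 only. The list of Lypd6b (Ezh2 at 0.42, then Ifi35, Tgfb2, Gm16973 and 2810468N07Rik) rests on 1 to 5 cells in which both genes had 10 reads. Lypd6 had 10 reads in too few cells to be compared.

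**Figure D5:**
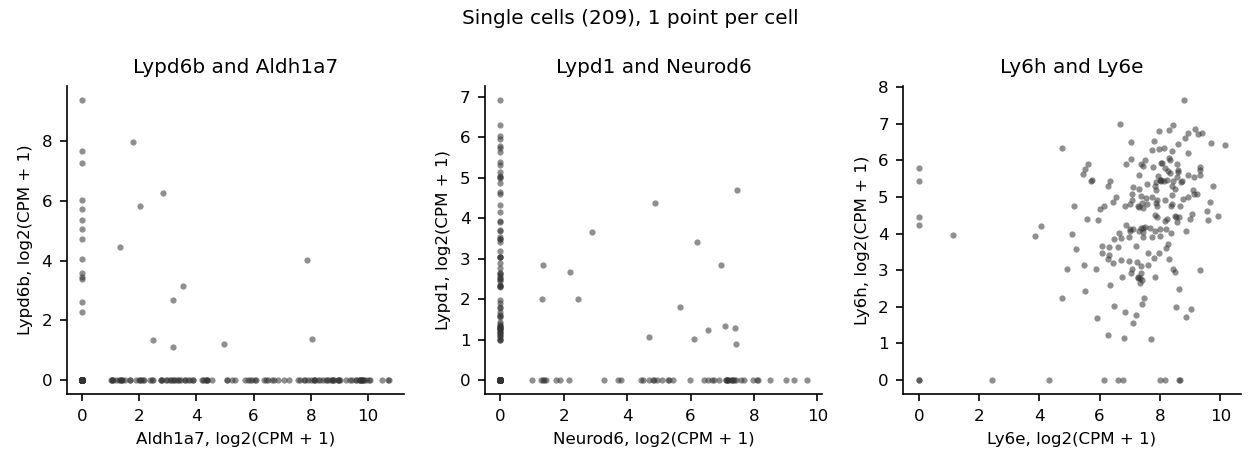
Levels in single cells, log2(CPM + 1), 1 point per cell (209 cells), for Lypd6b against Aldh1a7, Lypd1 against Neurod6, and Ly6h against Ly6e. Cells with Lypd6b lie mostly at low Aldh1a7, 2 cells had 10 reads of both Lypd1 and Neurod6, and Ly6h and Ly6e were related with a rho of 0.34.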

How the data were processed

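Single-cell RNA-seq libraries (SMARTer cDNA on a Fluidigm C1, Nextera, no molecular identifiers) were processed by the authors, who aligned reads to GRCm38.3 with TopHat2 2.1.1, trimmed with Trimmomatic 0.3.2 and counted with featureCounts 1.5.0-p3 on RefSeq genes, leaving out reads on more than 1 gene. The deposited table holds raw read counts per gene and cell and was used as deposited. The table had 47082 entries, of which 5721 without values and the spike-in and transgene entries (0.00457% of reads) were left out.

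Cells with at least 500000 reads on genes were kept (209 of 384). Wells with doublets had been excluded by the authors on inspection, and no doublet caller was run. A cell was called positive from 10 reads. Each cell is a sample in the labels and the replicate is the mouse, so counts were summed per mouse and class (at least 3 cells) and tested with edgeR 4.0.16 (R 4.3.3; TMM, filterByExpr, quasi-likelihood test, Benjamini-Hochberg over all genes tested, threshold 0.05). SEs are the log2 fold change divided by the root of F. DESeq2 1.42.0 was an alternative. Intervals are exact 95% binomial. Both classes of a split come from the same mice, so the mouse pairs the samples. Deviations from the class means correlated by 0.054 to 0.275 (Neurod6), 0.0452 to 0.183 (Aldh1a7) and 0.157 to 0.217 (Lypd1) within mice. The mouse is confounded with its C1 run, and only mouse 4 was sequenced on both lanes (4 cells on lane 1 and 8 on lane 2 among those used). Exon lengths came from GENCODE M21. The fits were tested on simulated data.

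Named genes were the 6 members, 16 nicotinic subunits, 5 assembly factors, 32 listed genes of the Ly6/uPAR family, the class genes and the 5 genes most like each member over cells. The members and lists were chosen with earlier results of these data known. The alternative limited to cells with 100 CPM of Th was chosen after the data had been seen, except for the correlations. The other alternatives changed the scaling, the filter, the limit for a positive cell, the depth of cells used, the block and the mice included.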

Additional observations from a re-analysis of the deposited data

Results flagged for a closer look

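Of 36 groups of 5 to 7 mice examined for a mouse far from the others, 6 held one, where about 1 in 20 arises by chance, and all 6 concern Lypd6 or Lypd6b. In Neurod6-positive cells, mouse 1 was at 18.3 CPM of Lypd6 against at most 2.3 CPM in the others, and mouse 3 at 55.4 CPM of Lypd6b against at most 6.83 CPM. In Neurod6-negative cells, mouse 1 was at 39.0 CPM of Lypd6b against at most 7.07 CPM. In Aldh1a7-negative cells, mouse 2 was at 8.08 CPM of Lypd6 against at most 2.70 CPM. In Aldh1a7-positive cells, mouse 3 alone had reads, at 3.53 CPM of Lypd6 and 0.554 CPM of Lypd6b, so that it was flagged there by construction. Among 12 pairs of a gene and a split, none had all females moving one way and all males the other. Females were few here, mouse 1 alone in the Neurod6 split and mice 4 and 6 in the Aldh1a7 split, so this says little about the sexes.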

How the results depend on the processing

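Leaving aside Lypd1 in its own split, no Ly6/lynx gene passed edgeR's test under any alternative run. DESeq2 called Lypd1 between the sexes (log2 fold change 2.00), Lypd6b in the Aldh1a7 split, and Chrna3 and Chrnb4 there. Counts of genes passing changed with the setting. For Neurod6 (7 genes) they were 4 with RLE factors, 3 without the filter, 333 with DESeq2, 1 with the mouse as a block, 3 with 50 reads as the limit, 4 with thinned cells, 12 with cells from 100000 reads, and 1 to 18 leaving out each mouse. For Aldh1a7 (52) they were 556 with DESeq2, 29 with the mouse as a block, 14 with a limit of 1 read, 129 with cells from 100000 reads, 17 in cells from 100 CPM of Th, and 14 to 87 leaving out each mouse. For Lypd1 (0) they were 1 (Adcyap1) without the filter, 145 with DESeq2 and 1 (Lypd1 itself) with a limit of 1 read, and 0 leaving out each mouse. For sex (5) they were 318 with DESeq2, 0 on the SMEAGOL machine and 4 to 5 leaving out each mouse. The mouse as a block changed no call of a Ly6/lynx gene. The causes were not tested.

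Signs turned with the setting for some small values, and also for larger ones of the sparse Lypd6 and Lypd6b. In the Neurod6 split, Lynx1 was at 0.48 with a limit of 1 read, 0.0102 with 50 reads and -0.34 to 0.20 leaving out each mouse. Lypd6b was at -1.82 with the mouse as a block, -0.0506 in thinned cells and -2.31 to 2.22 leaving out each mouse. Lypd6 was at -0.37 to 0.12 in the 4 fits without a mouse that gave it a value, against -0.39 in the main fit. In the Lypd1 split with a limit of 1 read, Lypd6b was at 0.28, Ly6h at -0.26 and Ly6e at -0.11, and leaving out each mouse gave -0.23 to 1.14 for Ly6h and -0.0716 to 0.24 for Ly6e. Between the sexes, Ly6h was at 0.0045 without the filter, 0.0606 with cells from 100000 reads, 0.0409 in cells from 100 CPM of Th and 0.0337 on the SMEAGOL machine, and Ly6e at 0.0788 with cells from 100000 reads and 0.20 on that machine; leaving out each mouse gave -0.86 to 0.37 for Lynx1, -1.64 to 8.60 for Lypd6, -0.27 to 0.13 for Ly6h and -0.12 to 0.0695 for Ly6e.

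Shares moved with the limit: from 1 read, Lypd1 40.7%, Lypd6b 12.0% and Ly6h 94.7%; from 50 reads, Lypd1 1.91%, Lynx1 38.28%, Ly6h 12.0% and Ly6e 86.1%; with cells from 100000 reads, Ly6h 52.4% and Ly6e 79.9%. The other 27 shares, all 30 levels and all 105 correlations moved by less than 1 SD over mice. A limit of 50 reads for Lypd1 was not run, since it left fewer than 2 mice.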

Other observations

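Of 28 further family genes in the table, 8 had reads in the 209 cells. Cd59a, which encodes a membrane inhibitor of complement, was at 10.6 to 111 CPM over the 8 mice with a median of 52.4 CPM, and had 10 reads in 112 cells (53.6%). Its paralog Cd59b had 10 reads in 10 cells (4.78%), and reads of near-identical stretches may have been left out of both. The other 6, Ly6c1, Ly6c2, Lypd2, Lypd3, Plaur and Tex101, were each found in 1 cell. Cd59a and Cd59b were the only ones tested, and neither passed in any of the 4 comparisons with edgeR.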
